A study of Mus musculus with 23 samples.

Results

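The carnitine shuttle and the carnitine acyltransferases were followed in mouse liver after loss of Cpt1a, by 8 genes taken by symbol: Slc22a5, Cpt1a, Cpt1b, Cpt1c, Slc25a20, Cpt2, Crat and Crot. They are 8 of the 26522 genes listed in either of the deposited tables, and all 8 are listed in both the table of the males (24434 genes) and that of the females (24940 genes). RNA had been sequenced in bulk from whole liver of 23 mice in 4 groups: 5 males and 6 females labelled B100-Control, and 6 males and 6 females labelled B100-LKO, in which the gene ablated in the liver is Cpt1a. All 4 groups shared the B100 background and had eaten the diet labelled WD for 16 weeks, and their livers were taken in the fed state. The promoter driving the ablation, the part of Cpt1a removed and the ages of the mice are not given in the sources used here. The comparison of LKO with control livers asked whether another step of the shuttle, or another form of the missing enzyme, was expressed at a different level where Cpt1a was lost.

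Long-chain fatty acids cross the inner mitochondrial membrane as carnitine esters. A carnitine palmitoyltransferase 1 (CPT1) on the outer membrane makes the ester and is the step held back by malonyl-CoA, a translocase exchanges the ester for free carnitine across the inner membrane, and carnitine palmitoyltransferase 2 turns it back into acyl-CoA for beta-oxidation. In liver this route feeds ketone body synthesis in fasting, and many of its genes are known targets of the nuclear receptor PPAR-alpha.

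Total counts ran from 14224665 to 18361717 per library in control males, 15370271 to 16689307 in LKO males, 15174756 to 17129450 in control females and 15434065 to 19626662 in LKO females. The 7 hepatocyte markers looked up, Alb among them, summed to between 56907 and 106141 CPM (counts scaled to library depth, with TMM factors) in every library. Of 5 markers of skeletal muscle, the tissue known for Cpt1b, 3 were listed and summed to 1.85 CPM or less, and 4 of 5 neuronal markers, the cell type known for Cpt1c, summed to 14.1 CPM or less, with Stmn2 at 0 in all control females. The 5 adipocyte markers summed to as much as 97.7 CPM in LKO males, nearly all of it Cidea, and to 8.96 CPM or less in females. In control females 5 and 6, all 10 of a list of PPAR-alpha target genes had the lowest 2 values of the 6 controls, so the female differences of the shuttle genes and several lists are also given without them. Control male 4 was the lowest of the 5 control males for 6 of those 10 genes.

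Per unit of length, 3 of the 8 genes stood highest in the control livers by the deposited FPKM (fragments scaled to gene length and library depth). This order rests on the annotated gene lengths, such as 7642 bases for Cpt1a and 2391 for Cpt2. By CPM, which is not scaled to length, Cpt1a had the highest mean of the 8 in control males (362), above Crot (345) and Cpt2 (170). In control males Cpt2 stood at 69.8 ± 3.68 FPKM (SD, n = 5), Crot at 62.4 ± 14.3 and Cpt1a at 46.6 ± 6.57, and the ranges of neighbours in this order overlapped. Slc25a20 at 27.3 ± 2.34 FPKM and Crat at 21.5 ± 5.99 followed, with ranges that overlapped each other but, for Slc25a20, not that of Cpt1a. Slc22a5 was at 6.70 ± 1.32 FPKM, Cpt1c at 0.219 ± 0.132 and Cpt1b at 0.0177 ± 0.0178, each apart from the one before.

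Control females had the same order of means, from Cpt2 at 65.1 ± 15.2 FPKM (SD, n = 6), Crot at 61.1 ± 12.7 and Cpt1a at 50.3 ± 7.61 to Cpt1c at 0.134 ± 0.0723 and Cpt1b at 0.0368 ± 0.0310. In females the ranges of Crat and Slc22a5, and of Cpt1c and Cpt1b, also overlapped. The LKO livers kept Cpt2 and Crot at the top, while Cpt1a moved from the third place to the sixth in both sexes, behind Slc22a5. In LKO females, Slc22a5 at 14.7 ± 1.18 FPKM was above Cpt1a at 9.79 ± 1.10 in 6 of 6 livers without overlap, and in LKO males, at 8.54 ± 1.79 against 8.19 ± 2.62 FPKM, in 4 of 6 livers with overlap. This order too rests on the annotated lengths, and the part of Cpt1a removed is not given. By CPM, Cpt1a ran from 61.8 to 86.3 in LKO females, above Slc22a5 at 39.8 to 50.9. In LKO males it ran from 42.2 to 96.8 CPM, above Slc22a5 at 22.6 to 36.5.

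**Figure D1:**
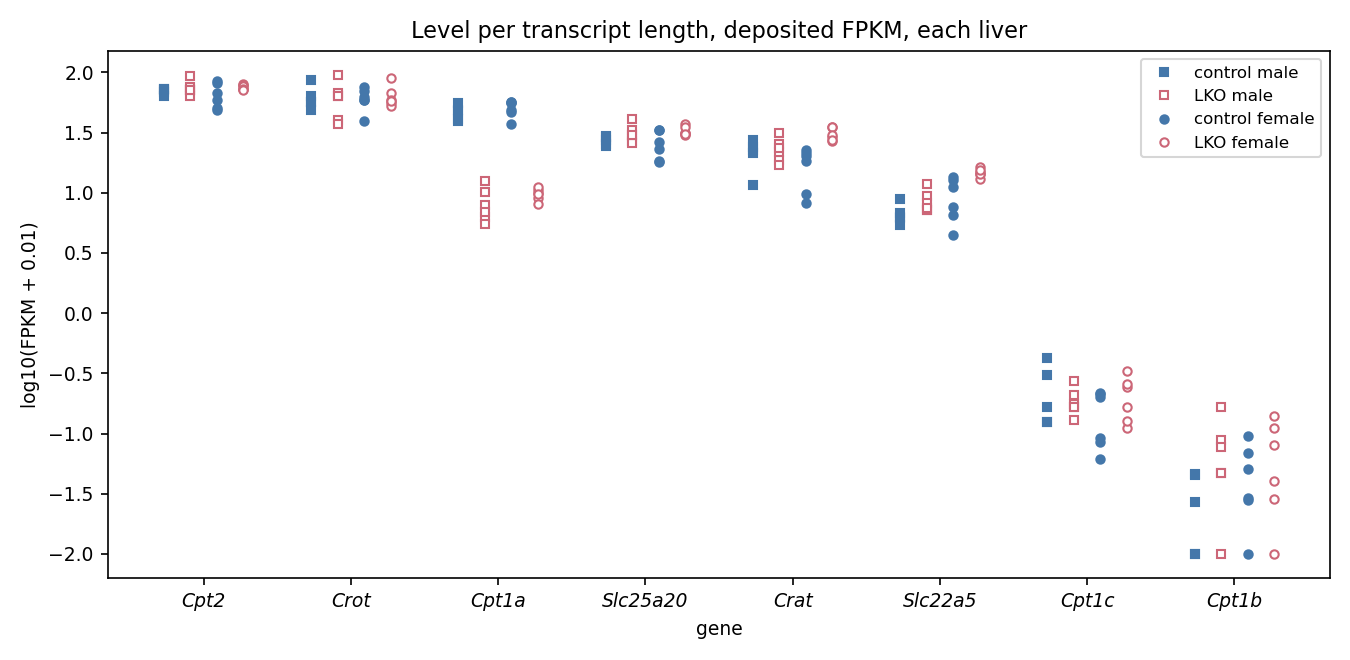
Each point is 1 liver, with the deposited FPKM of each of the 8 genes on the y axis as log10(FPKM + 0.01), so that a gene listed at 0 lies at -2. Cpt1a is the only gene whose LKO points (open) lie wholly below its control points (filled) in both sexes, and Cpt1c and Cpt1b lie far below the other 6 genes in every group.

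Promoter sequences were read from RefSeq for the build GRCm38.p6, 250 bases before the annotated start in the direction of transcription, for the 6 of the 8 genes with an entry. The 5 shown are those of the ablated gene, of Slc25a20, Cpt2 and Slc22a5, whose levels varied together across livers, and of Crot, whose level did not follow theirs. They lie at chr19:3323051-3323300 on the plus strand for Cpt1a, chr9:108661886-108662135 on the plus strand for Slc25a20, and on the minus strand at chr4:107923590-107923839 for Cpt2, chr11:53891704-53891953 for Slc22a5 and chr5:8997147-8997396 for Crot. Capitals mark each match, on either strand, of the nuclear receptor half-site AGGTCA, the GC box GGGCGG and the CCAAT box, so that a match on the other strand reads as the reverse complement.
Cpt1a: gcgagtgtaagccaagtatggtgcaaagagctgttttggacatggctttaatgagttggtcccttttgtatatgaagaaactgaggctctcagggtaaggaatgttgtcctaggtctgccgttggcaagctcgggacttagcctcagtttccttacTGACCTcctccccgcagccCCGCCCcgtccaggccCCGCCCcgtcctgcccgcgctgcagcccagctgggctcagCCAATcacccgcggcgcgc
Slc25a20: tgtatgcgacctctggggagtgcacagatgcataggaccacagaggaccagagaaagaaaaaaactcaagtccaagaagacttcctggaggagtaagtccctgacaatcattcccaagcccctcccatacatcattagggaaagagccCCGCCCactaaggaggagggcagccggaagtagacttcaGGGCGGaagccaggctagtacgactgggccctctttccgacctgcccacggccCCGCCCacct
Cpt2: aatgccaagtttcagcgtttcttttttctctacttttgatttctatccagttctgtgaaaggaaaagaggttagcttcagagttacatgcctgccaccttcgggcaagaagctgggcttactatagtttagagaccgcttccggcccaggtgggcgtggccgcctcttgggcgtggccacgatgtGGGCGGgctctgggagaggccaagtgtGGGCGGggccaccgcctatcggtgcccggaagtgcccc
Slc22a5: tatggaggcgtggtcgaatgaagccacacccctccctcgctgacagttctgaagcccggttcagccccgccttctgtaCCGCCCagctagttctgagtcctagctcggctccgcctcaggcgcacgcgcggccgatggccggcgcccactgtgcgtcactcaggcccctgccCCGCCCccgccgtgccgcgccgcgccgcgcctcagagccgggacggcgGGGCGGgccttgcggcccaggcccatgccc
Crot: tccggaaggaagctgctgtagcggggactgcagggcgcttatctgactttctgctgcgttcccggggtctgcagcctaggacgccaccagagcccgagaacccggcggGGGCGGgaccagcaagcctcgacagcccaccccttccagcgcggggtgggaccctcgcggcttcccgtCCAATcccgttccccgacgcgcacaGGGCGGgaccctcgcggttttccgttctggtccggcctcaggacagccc

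The GC box was the only motif present in all 6 promoters read, Cpt1c included, with 3 matches in Slc25a20 and in Slc22a5, 2 in Cpt1a, Cpt2 and Crot and 1 in Cpt1c. It was held by 32.97% of the 32536 promoter windows of the same length in the table. The half-site, the word that PPAR-alpha elements are built from, matched once in Cpt1a, 94 bases before the start on the opposite strand, and once in Cpt1c, and was in 14.04% of all windows. Its direct repeat with 1 base between, known as DR1, was in none of the 6 and in 0.03381% of all windows. The CCAAT box matched once each in Cpt1a, Cpt1c and Crot, and was in 33.81% of all windows. No motif overlapped another in the printed sequences, and a match or its absence describes these letters only.

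The ablated gene was lower in every LKO liver than in any control of its sex. Cpt1a (ENSMUSG00000024900, chr19:3372334-3435733 in the tables' mm39 coordinates) was at 321, 375, 381, 303 and 431 CPM in control males 1, 2, 3, 4 and 6, and from 42.2 to 96.8 CPM, with a median of 57.9, in the 6 LKO males. In females it ran from 285 to 431 CPM with a median of 400.1 in controls and from 61.8 to 86.3 CPM with a median of 75.3 in LKO livers. The groups did not overlap in either sex, lower without overlap being found for 1.1% of all genes in males and 0.548% in females. The LKO level was 0.176 of the control level in males (log2 fold change -2.50, 95% interval -2.92 to -2.08, edgeR quasi-likelihood adjusted p 9.97e-05) and 0.196 of it in females (-2.35, -2.60 to -2.11, adjusted p 3.69e-08). Cpt1a, the gene ablated by design, was the only 1 of the 8 genes called by edgeR in either sex. In males it was also the only gene called among all 13805 tested, so the share of 0.00724% is Cpt1a itself. In females 1.42% of 13684 genes were called. In bulk tissue, fewer cells that express a gene and less of its RNA per cell cannot be told apart.

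The other CPT1 forms were near the limit of detection in all 4 groups. Cpt1b, the form of muscle and brown fat (ENSMUSG00000078937, chr15:89300608-89310066), had 2, 0, 2, 0 and 1 counts in the control males and 0 to 9 counts, with a median of 3, in LKO males. It had 0 to 5 counts with a median of 1.5 in control females and 0 to 9 with a median of 3 in LKO females. The groups overlapped in both sexes, with a sum of 5 counts in control males against 21 in LKO males and 12 in control females against 22 in LKO females. The counts did not pass the filter on low values, and with no filter the edgeR log2 fold change was 1.66 in males (95% interval -0.20 to 3.52, adjusted p 0.561) and 0.65 in females (-0.91 to 2.20, adjusted p 0.769).

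Cpt1c, the neuronal form (ENSMUSG00000007783, chr7:44608796-44624275), had 38, 11, 28, 8 and 15 counts in control males and 12 to 26 counts, with a median of 14.5, in LKO males. It had 5 to 18 counts with a median of 11.5 in control females and 9 to 32 with a median of 18 in LKO females. Control males 1 and 3 were above every LKO male, and 3 LKO females were above every control female on the CPM scale. The log2 fold change was -0.31 in males (95% interval -1.10 to 0.47, edgeR adjusted p 0.785) and 0.57 in females (-0.25 to 1.39, adjusted p 0.521). In males its sign rested on control male 1, without which it was 0.05. The tables list a long non-coding RNA, 6530437J22Rik, on the other strand over 3875 bases of Cpt1c, and the use of strand in counting is not given in the sources used here, which makes its counts uncertain.

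Set against the loss of Cpt1a, the sum of the 2 other forms hardly moved in absolute terms. Cpt1a fell by 38.4 FPKM between the group means in males and by 40.5 FPKM in females, while Cpt1b and Cpt1c together differed by 0.0031 FPKM in males and 0.083 FPKM in females. Their sum ran from 0.114 to 0.450 FPKM in control males and from 0.120 to 0.330 in LKO males, and from 0.0935 to 0.249 in control females and 0.120 to 0.423 in LKO females. Their share of all CPT1 FPKM was 0.519% ± 0.362 (SD, n = 5) in control and 3.02% ± 1.28 (n = 6) in LKO males, and 0.350% ± 0.178 and 2.45% ± 1.02 (n = 6 each) in control and LKO females. The lowest LKO share, 1.69% in males and 1.30% in females, was above the highest control share, 1.09% and 0.662%, and these shares share their denominator with Cpt1a. The summed FPKM of all 3 CPT1 forms was 17.99% of the control mean in LKO males and 19.9% in LKO females. Whether the Cpt1a RNA left in LKO livers encodes the enzyme was not tested, as the part of Cpt1a removed is not given.

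**Figure D2:**
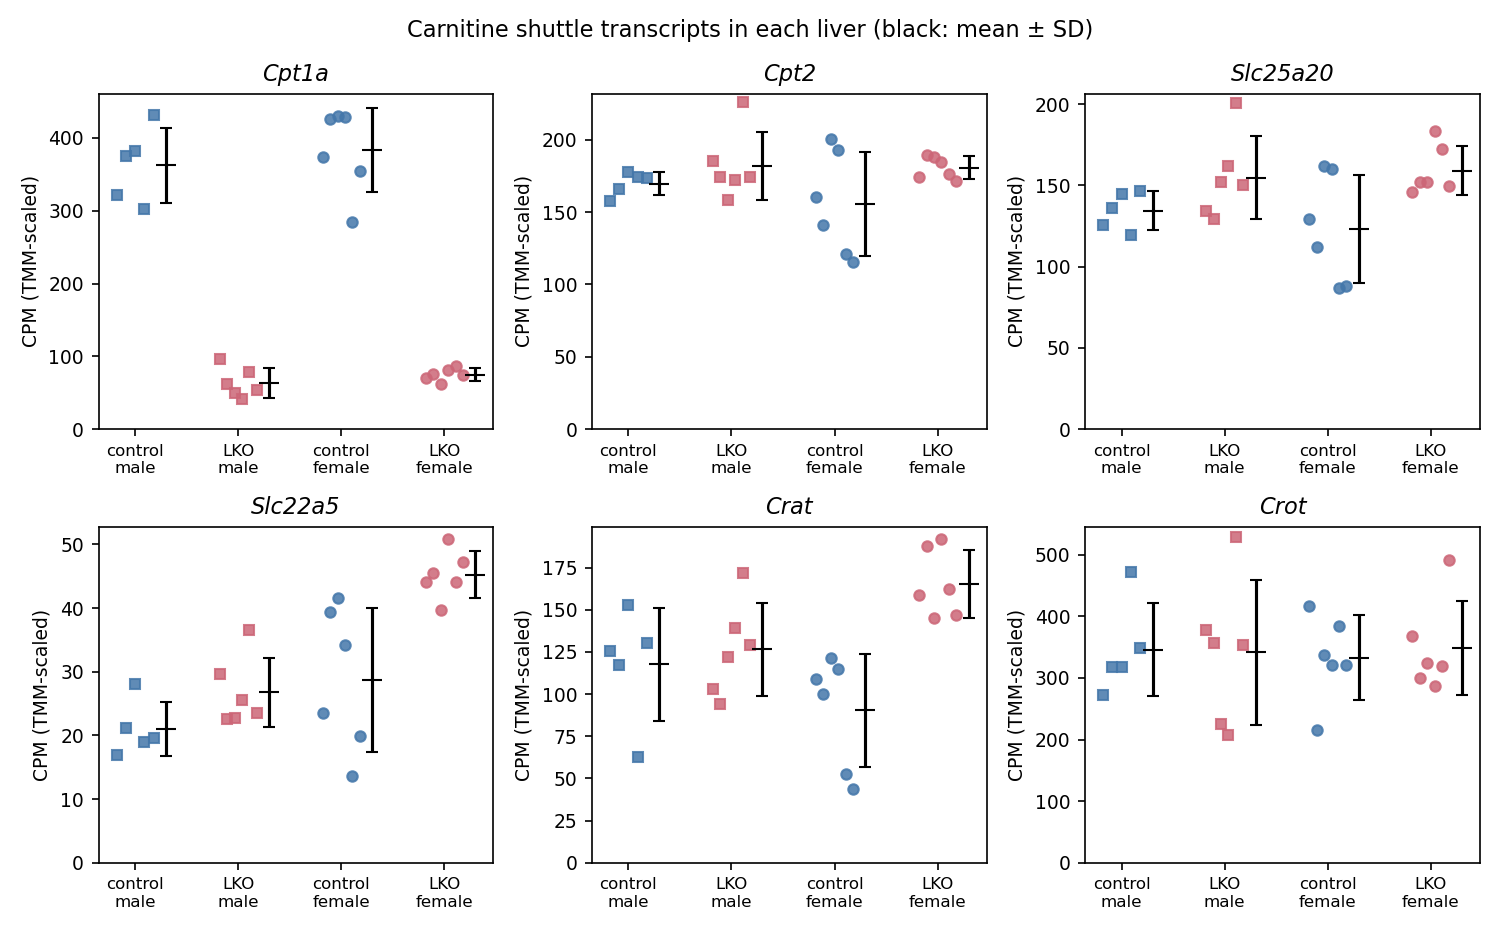
TMM-scaled CPM (y axis, from 0) of the 6 well-expressed genes in each liver, with the mean and SD of each group in black; squares are males, circles females, blue controls and red LKO. Crat is the only gene besides Cpt1a in which all LKO females (145 to 192 CPM) lie apart from all control females (43.8 to 122 CPM).

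Among the other steps, the plasma membrane carnitine carrier differed in the same direction in both sexes without passing the threshold. Slc22a5 (OCTN2, ENSMUSG00000018900, chr11:53755368-53782486), which brings carnitine into the cell, was at 16.9, 21.2, 28.0, 18.9 and 19.7 CPM in control males 1, 2, 3, 4 and 6. The 6 LKO males ran from 22.6 to 36.5 CPM with a median of 24.5, so control male 3 lay inside their range and the other 4 controls below it. In females Slc22a5 ran from 13.7 to 41.5 CPM with a median of 28.9 in controls and from 39.8 to 50.9 CPM with a median of 44.7 in LKO livers. In females 5 of 6 LKO livers were above the highest control, and control females 1, 5 and 6 had the 3 lowest values.

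Slc22a5 differed by a log2 fold change of 0.35 in males (95% interval 0.02 to 0.68, edgeR adjusted p 0.372) and 0.66 in females (0.20 to 1.11, adjusted p 0.139). The mean of both within-sex effects, which uses the same 23 livers and is not a separate result, was 0.51 (0.21 to 0.80, adjusted p 0.101), where edgeR called 79 of 14503 genes, 0.545%, and Cpt1a was the only 1 of the 8 among them. By the DESeq2 Wald test the same mean was past the threshold for Slc22a5 (0.50, adjusted p 0.0375), where 1.98% of genes were, and its adjusted p lay between 0.0375 and 0.188 in the 31 alternatives. Without control females 5 and 6 the female value fell to 0.39 (0.09 to 0.68, edgeR adjusted p 0.354).

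The inner membrane carrier differed by less. Slc25a20 (the carnitine-acylcarnitine translocase, ENSMUSG00000032602, chr9:108539287-108561840) was at 125, 136, 145, 119 and 146 CPM in the control males and from 129 to 201 CPM, with a median of 151, in LKO males. In females it ran from 87.1 to 162 CPM with a median of 121 in controls and from 146 to 183 CPM with a median of 152 in LKO livers. In males 4 LKO livers lay above all control males, but in females controls 3 and 4, at 162 and 159.8 CPM, lay within the LKO range, and controls 5 and 6, at 87.1 and 87.9 CPM, far below it. On the log2 scale the difference was 0.20 in males (95% interval -0.04 to 0.44, edgeR adjusted p 0.490) and 0.37 in females (0.05 to 0.69, adjusted p 0.245), and the female value fell to 0.18 (-0.08 to 0.43, adjusted p 0.687) without control females 5 and 6.

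Cpt2 (ENSMUSG00000028607, chr4:107761178-107780807), the enzyme that returns the ester to acyl-CoA in the matrix, differed little among control males, at 157, 166, 178, 174 and 173 CPM. LKO males ran from 158 to 226 CPM with a median of 174, only replicate 5, at 226 CPM, and replicate 1 lying above the controls. Control females ran from 116 to 200.5 CPM with a median of 151 and LKO females from 171 to 189.7 CPM with a median of 180.3, inside the control range. The log2 difference was 0.10 in males (95% interval -0.10 to 0.30, edgeR adjusted p 0.711) and 0.22 in females (-0.05 to 0.49, adjusted p 0.437), and 0.06 in females (-0.17 to 0.28, adjusted p 0.929) without control females 5 and 6. In males the interval held no change beyond a 1.23-fold rise or a fall to 0.933 of the control level.

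Crat showed the widest gap between LKO and control females among the 7 genes besides Cpt1a. Crat (carnitine acetyltransferase, ENSMUSG00000026853, chr2:30290483-30305825), which moves acetyl and other short-chain groups between CoA and carnitine in mitochondria and peroxisomes, was at 109, 100.1, 122, 115, 52.6 and 43.8 CPM in control females 1 to 6. The LKO females were at 159, 188, 145, 192, 162 and 147 CPM. Every LKO female was thus above every control female, which held for 1.05% of the genes tested, and among the controls replicates 5 and 6 were far below the other 4.

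Mean Crat was 90.3 ± 33.5 CPM in the 6 control females and 165 ± 20.01 CPM in the 6 LKO females (SD). This was a 1.83-fold difference (log2 0.87, SE 0.22, 95% interval 0.41 to 1.34) whose edgeR adjusted p of 0.0620 missed the threshold of 0.05. The DESeq2 Wald test put it past the threshold (adjusted p 0.00457), as it did 3.64% of all genes, and the authors' deposited table gives the same value, 0.00457. In all 21 alternatives its sign was the same, the adjusted p lay between 0.00457 and 0.134, and 4 were past the threshold: DESeq2, no filter (0.826% of genes called), a replicate block (2.44%) and leaving out control female 3. Without control females 5 and 6 the log2 fold change was 0.57 (0.34 to 0.80, edgeR adjusted p 0.0513), where 0.186% of genes were called. Without control female 3 it was 0.98 (edgeR adjusted p 0.0437, 1.58% of genes called).

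In males Crat did not separate the genotypes. Control males were at 126, 117, 153, 62.5 and 130.4 CPM and LKO males ran from 94.1 to 172 CPM with a median of 126, so the groups overlapped and control male 4 alone lay below all LKO males. Their log2 difference was 0.10 (95% interval -0.33 to 0.54, edgeR adjusted p 0.884). It was -0.055 without control male 4. The female effect exceeded the male effect by 0.77 on the log2 scale (0.11 to 1.42, p 0.0242, edgeR adjusted p 0.330), where no gene was called and 12.9% of 14503 genes had an unadjusted p under 0.05, so a difference between the sexes did not pass the test. DESeq2 called 0.532% of genes in that comparison, and Crat was not among them (adjusted p 0.258). Without control females 5 and 6 the female effect exceeded the male effect by 0.46 (-0.05 to 0.97, edgeR adjusted p 0.561), an interval that includes 0. The tables list Dolpp1 over 59 bases of Crat on the other strand.

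Crot, the peroxisomal carnitine octanoyltransferase, which makes medium-chain esters that leave the peroxisome, had group means between 333 and 349 CPM. Crot (ENSMUSG00000003623, chr5:9016033-9047324) was at 273, 317, 318, 471 and 349 CPM in control males and from 207 to 529 CPM, with a median of 355, in LKO males. It ran from 215 to 417 CPM with a median of 329 in control females and from 286 to 492 CPM with a median of 322 in LKO females. The ranges overlapped widely, and control male 4, low for Cpt1a, Slc25a20 and Crat, was the highest control male for Crot. The log2 fold change was -0.02 in males (95% interval -0.49 to 0.46, edgeR adjusted p 0.985) and 0.07 in females (-0.26 to 0.40, adjusted p 0.887), and its sign changed with single libraries in each sex. A processed pseudogene, Gm15610, lies over 195 bases of Crot on the other strand in the tables.

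**Figure D3:**
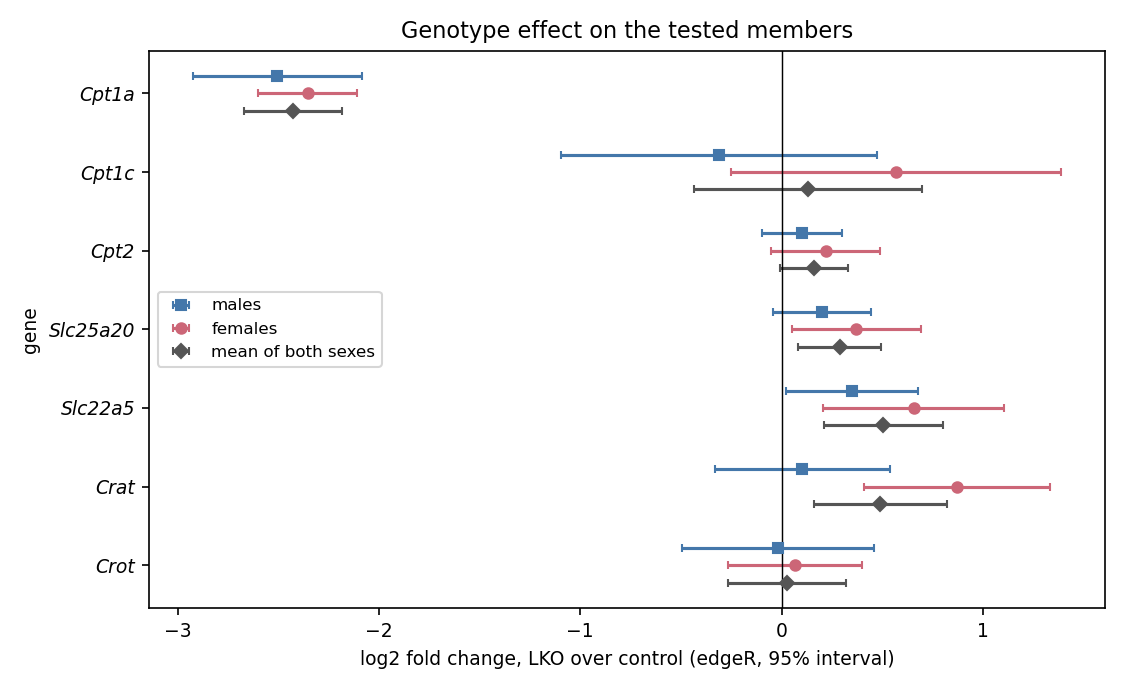
The log2 fold change of LKO over control (x axis) with its 95% interval from edgeR for the 7 genes that passed the filter, in males (squares), in females (circles) and as the mean of both (diamonds, from the same livers). The intervals of Cpt1a lie near -2.4, those of Crot and Cpt1c include 0 throughout, and those of Slc22a5 lie above 0 although no adjusted p but that of Cpt1a passed 0.05.

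Of the 7 genes besides Cpt1a, 6 passed the filter. In males 4 of these 6 had a log2 fold change above 0 with a median of 0.10, beside 52.1% of all genes tested and a median of 0.01. In females 6 of 6 were above 0 with a median of 0.47, beside 51.1% of all genes and a median of 0.0051, and without control females 5 and 6 the count was 6 of 6 and the median 0.28. None of the 6 was called by edgeR in either sex, in the mean of both or in the difference between them, with an unadjusted p under 0.05 for 1 in males (12.5% of all genes), 3 in females (15.6%), 3 in the mean (14.8%) and 1 in the difference. Of all genes, edgeR called 0.00724% in males, 1.42% in females, 0.545% in the mean and 0% in the difference. DESeq2 called none of the 5 it gave an adjusted p in males, Cpt1c having none (1.45% of all genes called), Crat in females, Slc22a5 in the mean and none in the difference. Between control females and control males, where 18% of 13699 genes were called, none of the 7 tested genes was called, Slc22a5 being nearest with 0.49 higher in females (95% interval -0.05 to 1.04, edgeR adjusted p 0.196). Without control females 5 and 6, Slc22a5 was higher in females by 0.76 (edgeR adjusted p 0.0251, 9.17% of genes called), and with a replicate block by 0.60 (adjusted p 0.0382, 7.23%). That block matched the control sexes by number, where same-number correlations ran from -0.15 to 0.11. There is no control male 5, so control female 5, the lowest for Slc22a5, did not inform it. The calls with the block and without the low controls are therefore not independent. Sex coincides with the deposited table, so they cannot be told apart.

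The genes around the shuttle were taken from 7 lists, of whose 55 tested genes edgeR called none in either sex. Of all genes, edgeR called 0.00724% in males and 1.42% in females, so few calls were to be found in lists of this size. An unadjusted p under 0.05 was found for 5 of the 55 in males and 17 in females, beside 12.5% and 15.6% of all genes. DESeq2 called none of the 47 it gave an adjusted p in males (1.45% of all genes called). In females it called Fgf21 and Plin2, both PPAR-alpha targets (3.64% of all genes called). Of the 8 genes for carnitine synthesis and other carnitine transporters, 6 were tested, with 5 above 0 in males and 2 in females. Bbox1, the last enzyme of carnitine synthesis, had the lowest p in males, at 115 ± 10.6 CPM in controls and 121 ± 9.33 in LKO livers (log2 fold change 0.07). Aldh9a1, an earlier enzyme of that route, had the lowest in females, at 308 ± 34.2 and 287 ± 12.7 CPM (-0.10).

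Among the 6 genes that set the malonyl-CoA brake on CPT1, 4 were above 0 in males and 3 in females. Prkaa2, a catalytic subunit of AMP-activated kinase, had the lowest p in males (0.19, edgeR adjusted p 0.494). Fasn, which uses malonyl-CoA to build fatty acids, had the lowest in females, at 695 ± 367 CPM in controls and 357 ± 98.1 in LKO livers (-0.96, adjusted p 0.139). Of the 5 long-chain acyl-CoA synthetases, which supply CPT1 with acyl-CoA, 4 were tested, and Acsl1 was lowest in p in males (0.36, adjusted p 0.440) and Acsl5 in females (-0.38, adjusted p 0.248).

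Downstream of import, 6 of 11 beta-oxidation genes were above 0 in males with a median of 0.02, and 9 of 11 in females with a median of 0.14. The female count was 7 of 11 and the median 0.040 without control females 5 and 6. The lowest p belonged to Etfb, a subunit of the electron transfer flavoprotein, in males (-0.28, edgeR adjusted p 0.343) and to Hadhb, a subunit of the trifunctional protein, in females (0.36, adjusted p 0.132). Of the 10 genes of peroxisomal import and oxidation, a route that does not need CPT1, 9 were above 0 in males with a median of 0.08 and 9 in females with a median of 0.25, which was 0.14 with 9 of 10 above 0 without control females 5 and 6. Abcd3, a peroxisomal acyl-CoA transporter, had the lowest p in males (0.19, adjusted p 0.396) and Acaa1a, a peroxisomal thiolase, in females (0.36, adjusted p 0.159).

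Of the 8 regulators of CPT genes, 6 were above 0 in males and 4 in females, with Pparg lowest in p in males (0.24, edgeR adjusted p 0.808) and Hnf4a in females (-0.27, adjusted p 0.350). Among the 10 PPAR-alpha target genes, 5 were above 0 in males with a median of -0.0054 and 10 in females with a median of 0.61. The female count was 8 of 10 and the median 0.26 with control females 5 and 6 left out. Fabp1, a liver fatty acid carrier, had the lowest p in males, at 5689 ± 863 CPM in controls and 4618 ± 438 in LKO livers (-0.30, adjusted p 0.324). Plin2, a coat protein of lipid droplets, had the lowest in females, at 549 ± 149.6 and 898 ± 154 CPM (0.71, adjusted p 0.0519).

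Some markers of other cells differed with genotype in females. Of 6 markers of lipid-associated macrophages, 3 were called higher in LKO females, Gpnmb at 1.18 ± 0.637 CPM in controls and 11.03 ± 6.80 in LKO livers (log2 fold change 3.22, edgeR adjusted p 0.00256), Trem2 (1.32, adjusted p 0.00314) and Spp1 (0.66, adjusted p 0.0135). Of all 13684 genes tested there, edgeR called 127 higher, and 1.42% in either direction. With control females 5 and 6 left out, where 0.186% of genes were called, Gpnmb and Trem2 were still called and Spp1 was not (edgeR adjusted p 0.0939). With all livers DESeq2 called Itgax of this list as well, and 3.64% of all genes. The summed level of the list ran from 81.4 to 114 CPM in control and from 112 to 168 CPM in LKO females, with no marker at 0 throughout a group, and its part in the differences of Crat and Slc22a5 in females was not tested. Of 5 stellate and fibroblast markers, 5 were above 0 in females with a median of 0.49 and sums of 197 to 252 CPM in control and 181 to 354 CPM in LKO livers, none called by edgeR and Col3a1 called by DESeq2. In males these 5 stellate and fibroblast markers were above 0 too, with a median of 0.14. In females, resident macrophage markers were above 0 in 0 of 6, hepatocyte markers in 2 of 7 and endothelial markers in 1 of 5. Cholangiocyte markers were above 0 there in 4 of 4, erythroid in 5 of 5 and lymphocyte in 3 of 3 tested. None of these lists had a call by either tool in females. In the mean of both sexes, 4 of 7 hepatocyte markers had an edgeR unadjusted p under 0.05, beside 14.8% of all genes. DESeq2 called Cidea, from the adipocyte list, lower in LKO females (-2.72, adjusted p 0.0271). None of the 5 adipocyte markers, Cidea included, passed the edgeR filter there, and which cells express Cidea was not tested. This 1 call is therefore not read as a change in adipocytes. In males none of the 6 lipid-associated macrophage markers was called by edgeR and none of the 4 given an adjusted p by DESeq2, none had an unadjusted p under 0.05, and the sums ran from 84.1 to 267 CPM in controls and from 73.8 to 317 CPM in LKO livers. Of all genes in males, edgeR called 0.00724% and DESeq2 1.45%, and 12.5% had an edgeR unadjusted p under 0.05.

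Within groups, several of the genes rose and fell together from liver to liver. Each gene's log2 CPM was taken as the deviation from its group mean, and the 21 pairs of the 7 tested genes were compared over 23 livers by permutation within groups, with Benjamini-Hochberg adjustment over the 21 pairs. By Pearson's r, 8 pairs passed the threshold, and 5 by Spearman's rho. The permutation compares each pair with no correlation within groups, and the share of other gene pairs that would pass is not given here. Slc25a20 and Crat were correlated at r 0.85 and rho 0.84 (permutation p 2e-05, adjusted 0.00042 for both), with r 0.83 without the 2 livers farthest from the median of Slc25a20, 0.78 in males alone and 0.89 in females alone.

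Slc25a20 was also correlated with Cpt2, at r 0.86 and rho 0.64 (permutation p 0.00063 and 0.0101, adjusted 0.0044 and 0.0486), and at r 0.78 without the 2 livers farthest from the median of Cpt2. Within the sexes that pair passed in females (0.94, adjusted permutation p 0.0248) and not in males (0.62, adjusted permutation p 0.328). Slc22a5 was correlated with Cpt1a at r 0.63 and rho 0.72 (permutation p 0.00057 and 0.00046, adjusted 0.0044 and 0.0048), at r 0.77 without the 2 livers farthest from the median of Cpt1a, and within the sexes at 0.85 in females (adjusted permutation p 0.0146) and 0.57 in males (adjusted permutation p 0.328). The remaining 5 pairs past the threshold by r joined Slc22a5 with Cpt2, Slc25a20 and Crat (0.74, 0.73 and 0.69), and Cpt2 with Crat and Cpt1a (0.67 and 0.51), with rho from 0.51 to 0.66 and adjusted permutation p from 0.0278 to 0.0461 for r.

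Crot was in no pair past the threshold, with r between -0.21 and 0.30 over all livers, although with Cpt2 it reached 0.80 in males alone (adjusted permutation p 0.0426) and -0.040 in females alone. Cpt1c, with few counts, was in none either. Without control females 5 and 6 and control male 4, only Slc25a20 and Crat passed by r, at 0.80 (n = 20, permutation p 0.00011, adjusted 0.0023), while r was 0.76 for Cpt2 and Slc25a20 (adjusted permutation p 0.0758) and 0.54 for Cpt1a and Slc22a5 (adjusted permutation p 0.0984). By rho, Cpt1a and Slc22a5 passed there too, at 0.69 (adjusted permutation p 0.0279).

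**Figure D4:**
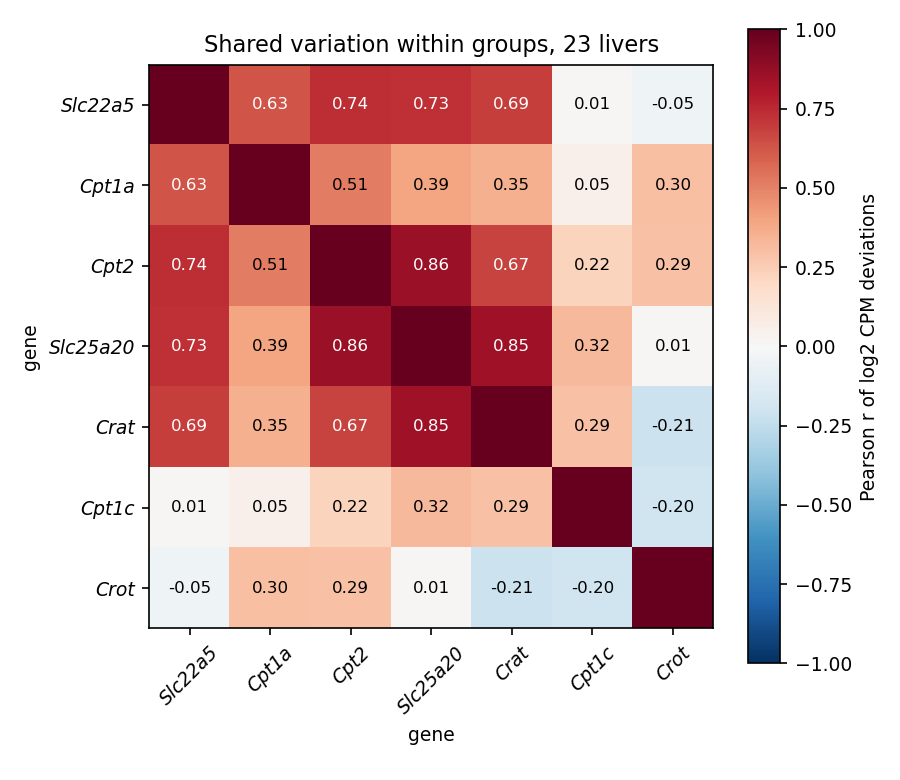
Pearson's r between the deviations of each pair of genes from their group means (log2 CPM), over 23 livers; red is positive and blue negative. The block of Slc22a5, Cpt2, Slc25a20 and Crat, with r from 0.67 to 0.86, stands beside the pale rows of Cpt1c and Crot.

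**Figure D5:**
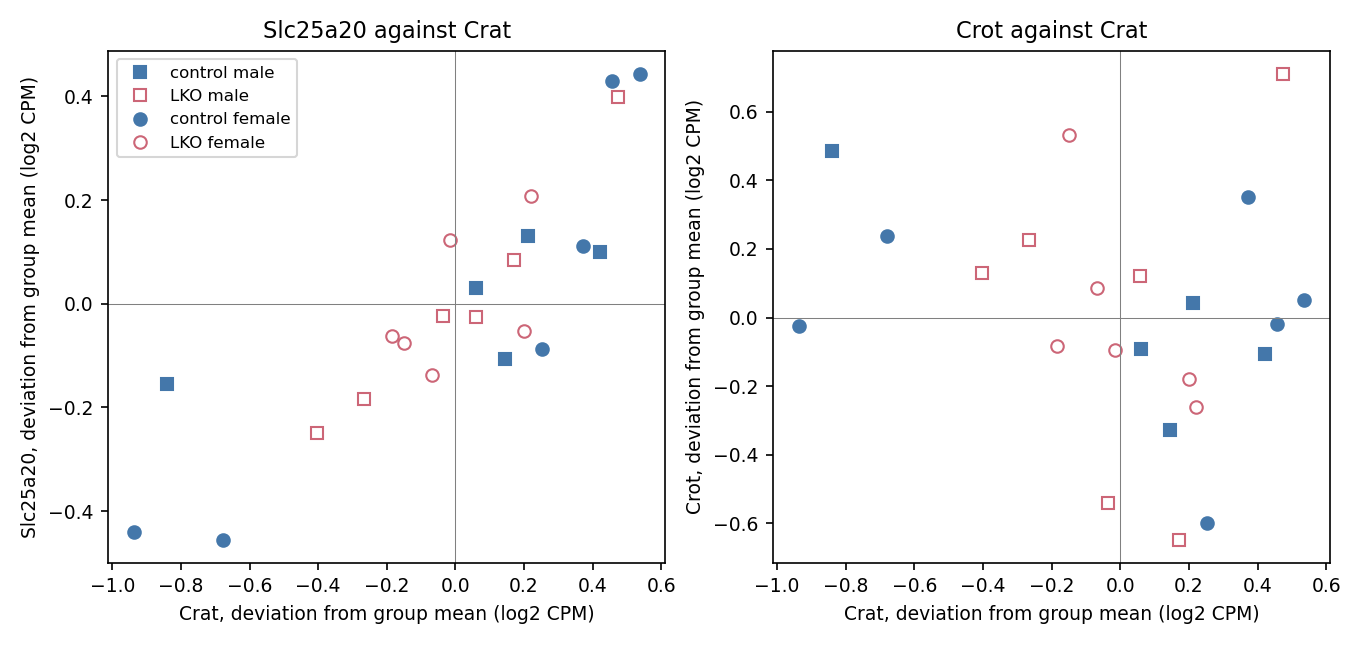
Deviation from the group mean on the log2 CPM scale, 1 point per liver, of Slc25a20 (left) and Crot (right) against Crat; squares are males, circles females, filled points controls and open points LKO. The points of Slc25a20 follow Crat (r 0.85) with control females 5 and 6 at the lower left, and those of Crot do not (r -0.21).

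The genes whose deviations were most like each of the 7 were ranked by Pearson's r among 7403 protein-coding genes with a mean of at least 10 CPM over the same 23 livers, as a description. For Crat they were Pex11a, a peroxisome proliferation factor (0.95), Vnn1, a pantetheinase (0.91), and Paqr7 (0.90). For Slc25a20 they were Hsd17b4, a peroxisomal beta-oxidation enzyme (0.94), Mgll, monoglyceride lipase (0.93), and Acad11 (0.90), with Cpt2 in place 8 and Crat in place 10. For Cpt2 they included Slc25a20 (0.86) and Mgll (0.86). For Crot they were Arhgef10l (0.88), Pnkd (0.85) and Sphk2 (0.83), for Slc22a5 Osbpl2 (0.85), Hsdl2 (0.84) and Elmod3 (0.81), for Cpt1a Josd1 (0.83), Arfgef1 (0.77) and Slc25a42 (0.76), and for Cpt1c Adamts2 (0.64), Fcsk (0.63) and Tut4 (0.62). Other pairs past the threshold ranked lower. Slc22a5 had Cpt2 in place 14, Slc25a20 in 18, Crat in 32 and Cpt1a in 87. Crat had Slc25a20 in place 13, Slc22a5 in 118 and Cpt2 in 139, and Cpt1a had Slc22a5 in 79 and Cpt2 in 335. Genes outside the 8 thus ranked above these partners. The ranking was made over all 23 livers only. Control females 5 and 6 and control male 4 were the lowest controls of their sex for Crat. Whether the r values and places hold without these livers was not tested. Vnn1 is itself on the list of PPAR-alpha target genes by which these livers were found to be low. Of the genes named here as like one of the 7, edgeR called Slc25a42 in females (0.48, adjusted p 0.0395), though not without control females 5 and 6 (0.40, adjusted p 0.233). None of the top 3 genes of Crat was called there by edgeR, where Pex11a differed by 0.83 (adjusted p 0.0906), Paqr7 by 0.83 (adjusted p 0.131) and Vnn1 by 0.65 (adjusted p 0.362). DESeq2 called Pex11a (adjusted p 0.0128), Elmod3 (0.0194), Adamts2 (0.0350) and Slc25a42 (0.00288) in females, where it called 3.64% of all genes. Without control females 5 and 6, edgeR called none of them, with an adjusted p of 0.189 for Pex11a.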

How the data were processed

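The authors deposited 1 table per sex with raw read counts, FPKM and a normalized count signal per gene and sample, and their own log2 fold changes and p-values. Reads were aligned with HISAT2 2.0.5 to mm39, per the submitters' processing notes, and poly-A RNA was made into dUTP libraries, per the labels' protocols. The counting tool and its use of strand are not given in the sources used here. Every sample column was mapped (0 left over). Counts were tested with edgeR 4.0.16 in R 4.3.3 (filterByExpr, TMM, quasi-likelihood, Benjamini-Hochberg over all genes tested, threshold 0.05), within each sex, and over all 23 samples for the genotype by sex difference, the mean of both sexes and the control sexes. The code was tested on simulated data. Deviations were log2 CPM with a prior count of 2, permuted 100000 times within groups, two-sided. The smallest raw p this could give is 1e-05.

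The labels number the samples without saying how they were collected, so p-values measure the spread between these samples. Replicate numbers were not used as pairs. Named genes are the 8 members, the gene with the lowest p per list and sex, called list genes, and the 3 genes most like each member, of which 1 is not reported here. Members and lists were chosen with earlier results of these data known. Alternatives were RLE factors, library size alone, no filter, DESeq2 1.42.0, a replicate block, leaving out samples, fitting the 23 samples together, and limma 3.58.1 with a pseudocount of 1 or 0.1 FPKM before the log2 step. Depths are total counts, and counts of 0 to 9 limit Cpt1b to a description.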

Additional observations from a re-analysis of the deposited data

How the results depend on the processing

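Cpt1a kept its direction and its call in both sexes and in their mean under every alternative. The number of the 8 genes called in females rose from 1 to 2, by Crat, with no filter (0.826% of genes called), with DESeq2 (3.64%) and with a replicate block (2.44%), and it ranged from 1 to 2 when single samples were left out. In the mean of both sexes it rose from 1 to 2 with DESeq2, by Slc22a5. Between control sexes it rose from 0 to 1, by Slc22a5, with a replicate block (0.60, edgeR adjusted p 0.0382 in a range of 0.0251 to 0.354, 7.23% of genes called) and without control females 5 and 6. With no control male 5, that block does not use control female 5, so these calls are not independent. The block changed no other call of a member. Numbers were to count as pairs only where every same-number correlation exceeded 0.1. This held for 1 of 5 numbers in males (-0.30 to 0.38) and 4 of 6 in females (-0.0028 to 0.14), so the rule was met in neither sex. In males 1 of 5 and in females 4 of 6 samples matched best with their own number. Whether same-number females share variation was not tested. In females the block calls Crat (adjusted p 0.0248 by edgeR, in a range of 0.00457 to 0.134 over the alternatives). The alternatives that leave out control females 5 and 6, or those with control male 4, were chosen after seeing the data.

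Without control females 5 and 6 the difference between sexes in genotype effect was -0.048 for Cpt2 and -0.029 for Slc25a20, and the difference between control sexes 0.072 for Cpt2 and 0.10 for Slc25a20. Crot was 0.052 in males with library size alone, and in the mean of both sexes -0.0011 with log2(FPKM + 1), -0.0015 with log2(FPKM + 0.1) and -0.063 with the replicate block. LKO male 5, which has no control of its number, does not inform the genotype effects estimated with the block. With single samples left out, Crot ran from -0.18 to 0.12 in males, -0.056 to 0.15 in females, -0.057 to 0.096 in their mean, -0.063 to 0.26 in their difference and -0.097 to 0.12 between control sexes, Cpt1c in males from -0.47 to 0.053 and Crat in males from -0.055 to 0.22. The cause was not tested.

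The count of pairs of genes past the threshold fell from 8 to 3 in males alone, 5 in females alone and 1 without control females 5 and 6 and control male 4, where fewer samples were tested. In males alone r turned to -0.053 for Cpt1a and Cpt1c, -0.19 for Cpt1c and Cpt2 and 0.44 for Crot and Slc22a5. In females alone it turned to -0.37 for Cpt1a and Crot, -0.0066 for Cpt1c and Slc22a5, -0.040 for Cpt2 and Crot and -0.10 for Slc25a20 and Crot. Without the 3 controls it was 0.059 for Crat and Crot and 0.15 for Crot and Slc22a5.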
